A study of Rattus norvegicus with 9 samples.

Results

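Prg4, Cd55, Pdpn, Thy1, Pdgfra, Pdgfrb, Fap, Has1, Has2, and Postn, genes used to mark the fibroblasts of the synovial lining and the joint, were followed by name in a table of 32043 genes measured by RNA sequencing of rat knee cartilage. All 10 genes were in the table once, and all 10 were among the 13898 genes tested, which had a mean of at least 0.5 FPKM over the 9 libraries. FPKM is the number of fragments scaled to gene length and library size, so levels can be compared between genes. The animals were male Sprague–Dawley rats, bought at 8 weeks of age and operated on at the left knee. Control rats (3 libraries) had the joint capsule opened and closed again with sutures and nothing more. In the model group (3 libraries) knee osteoarthritis was induced by the modified Hulth method, in which the medial collateral and anterior cruciate ligaments and the medial meniscus were taken out, followed by daily forced activity. In the SYD group (3 libraries) the same induction was followed by gavage of an extract of Shengyu decoction, a mixture of botanical drugs, for 4 weeks. In all groups the samples were taken at 8 weeks from the operation. The labels put these libraries in the SYD group but give no dose and name them CXTB, while the study calls its positive control drug group CXB. Its Methods mention sequencing of control and model only, and its Results present the sequenced SYD libraries as those of the highest dose. Nothing in the sources says which animals the libraries came from, so the p-values measure only the spread between these libraries, which may be technical. The extraction text of the labels speaks of retina while the tissue field says cartilage.

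The synovial lining is a thin sheet of fibroblasts and macrophages facing the joint fluid, which its fibroblasts supply with lubricin and hyaluronan. Below it lies the sublining, a looser tissue of THY1-positive fibroblasts, vessels, and perivascular cells. Cartilage itself is avascular and holds chondrocytes, whose surface zone also makes lubricin. PDGF receptors carry growth signals into fibroblasts and perivascular cells, and FAP and periostin are made by fibroblasts that are remodeling matrix.

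Promoter sequence was available from RefSeq (build GRCr8) for 7 of the 10 genes. The 150 bases before the start site are shown for Postn (chr2:140677911-140678060, plus strand), Fap (chr3:67616092-67616241, minus strand), and Pdgfra (chr14:33408517-33408666, minus strand), which were above every control library in the SYD group, and for Prg4 (chr13:65054226-65054375, minus strand), the lubricin gene, which was not. Each reads 5′ to 3′ toward its gene, and capitals mark a TATA box (TATAAA, or TTTATA where it lies on the other strand).
Postn: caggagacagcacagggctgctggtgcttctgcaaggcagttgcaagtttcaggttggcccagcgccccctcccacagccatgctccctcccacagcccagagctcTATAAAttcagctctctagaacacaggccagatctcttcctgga
Fap: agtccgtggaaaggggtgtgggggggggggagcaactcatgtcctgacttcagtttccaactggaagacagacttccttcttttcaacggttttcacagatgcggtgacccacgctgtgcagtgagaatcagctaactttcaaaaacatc
Pdgfra: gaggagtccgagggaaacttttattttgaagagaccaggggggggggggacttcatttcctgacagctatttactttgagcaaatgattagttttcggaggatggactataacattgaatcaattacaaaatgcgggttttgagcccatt
Prg4: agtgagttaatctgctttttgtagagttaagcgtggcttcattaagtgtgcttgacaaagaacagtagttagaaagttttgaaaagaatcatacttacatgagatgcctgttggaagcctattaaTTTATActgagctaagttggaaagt
In the 300 bases searched (250 before and 50 after the start, both strands), the TATA letters began 44 bases before the start of Postn and, on the other strand, 25 bases before that of Prg4. They were in 14.3% of 27457 rat promoters of that length. The GC box (GGGCGG) was in Cd55 and Pdpn and in 34.9% of all promoters. The AP-1 letters (TGACTCA), in 4.53% of promoters, and the TEAD letters (GGAATG), in 13.9%, were in 0 of the 7 genes. A match here is a description of letters and shows no binding.

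Reads recovered from the FPKM amounted to 14914121 to 19510537 per library. The libraries differed in the share of reads on the 37 mitochondrial genes, which was 4.33% ± 0.458 (SD, n = 3) in control, 70.5% ± 27.3 in model, and 43.7% ± 25.7 in SYD. This left 14306782 to 17373645 reads on other genes in control, but 1744769, 11106680, and 3611325 in model 1, 2, and 3, and 12322343, 12745818, and 5153851 in SYD 1, 2, and 3. The reads on each of the 10 genes numbered 0 to 245 in model 1, 0 to 943 in model 3, and 42 to 1470 in SYD 3. Control 2 also stood apart for these genes. It was the lowest control library for 8 of the 10, against 39.4% of all tested genes, and lay at or below 0.5 times the mean of control 1 and 3 for 6 of them (Prg4, Pdpn, Pdgfra, Fap, Has2, and Postn), against 12.6% of the 13686 tested genes for which this ratio could be taken. The chondrocyte markers were low in the same library, with a summed level of 451 FPKM against 11100 and 5774 in control 1 and 3. Among the model libraries, model 2 held the highest value of 9 of the 10 genes, against 39.6% of all tested genes.

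A gene was called by the rule of the study, with log2 fold changes beyond 1 either way at an unadjusted p under 0.05, here in limma on log2(FPKM + 1), and the Benjamini–Hochberg adjusted p over all 13898 genes is given beside it. Adding 1 to each value shrinks the fold of genes with low FPKM. Against control, 4 of the 10 genes were called higher in the SYD group and also with no filter on low values and with voom (Fap, Pdgfrb, Postn, and Pdgfra), where 16.5% of all tested genes were called and 7.25% were called higher. Has1 met the rule as well, but it passed the filter only through the model and SYD groups and is left out of this count. With an adjusted p under 0.05 in limma there were 2 (Fap and Pdgfrb), where the share of all genes was 17.3%. This count moved with the libraries, as did that over all genes. It was 0 without control 1, control 3, or SYD 2 and with the replicate block, and 1 without control 2 (Fap). It was 4 without SYD 3 (Pdgfra, Pdgfrb, Postn, and Thy1) or with voom (Fap, Pdgfra, Pdgfrb, and Postn). Without SYD 1 only Has1, left out above, was under the threshold. Over all 13898 genes the same count, 2407 with all 6 libraries, was 758, 209, and 1587 without control 1, control 3, or SYD 2, 0 with the block, 592 and 1640 without control 2 or SYD 1, and 3526 and 2837 without SYD 3 or with voom. By the rule of the study the same 4 genes were called without SYD 3, the only one of these 6 libraries with over 60% mitochondrial reads, and without control 2 there were 3 (Fap, Pdgfrb, and Postn). Fap, Pdgfrb, Postn, and Pdgfra also had all 3 SYD libraries above all 3 control libraries, which held for 20.3% of all tested genes. The median log2 fold change of the 10 genes was 0.97, with Has1 (1.49) included, against 0.00 for all genes tested. In the model group only Fap was called, where 14.7% of all genes were called and 3.55% were called higher, and 0 of the 10 genes had an adjusted p under 0.05 in limma (2.59% of all genes did), also with voom on the recovered reads, while 1 had an unadjusted p under 0.05 (19.2% of all genes). Between SYD and model 0 of the 10 were called, also with voom, where 4.15% of all genes were, and 1 (Fap) had an unadjusted p under 0.05 in limma, as 5.26% of all genes did. The adjusted p was under 0.05 for 0 of the 10 and for 0.0% of all genes. Without model 2, 4 genes were called (Fap, Pdgfrb, Postn, and Thy1), but the genes called among all 13898 also went from 577 to 2495, of which 1923 were higher. The 3 comparisons share their libraries in pairs and are not independent of each other. In these bulk samples, more or fewer cells of a type and more or less RNA per cell cannot be told apart.

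**Figure D1:**
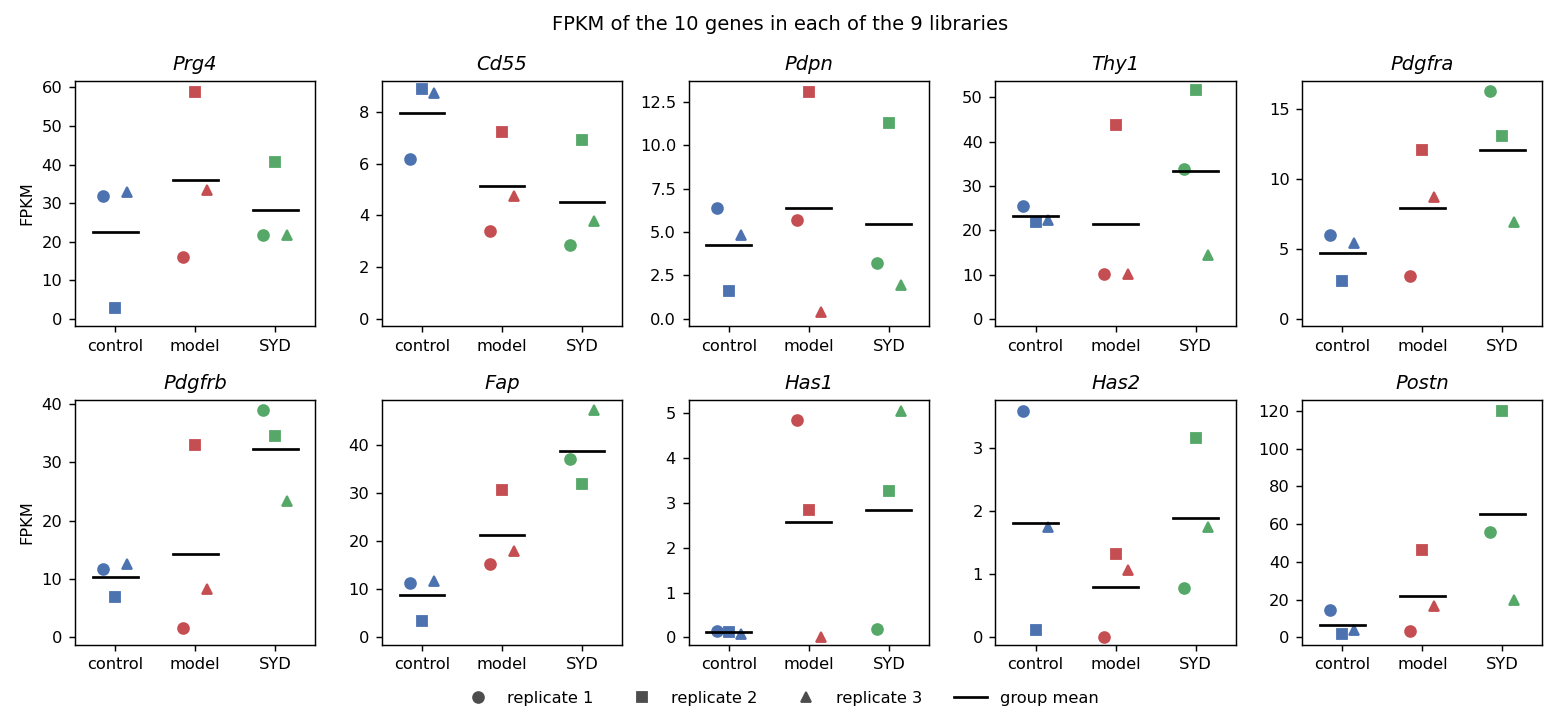
FPKM of each of the 10 genes (vertical axis, a separate linear scale for each gene) in the control, model, and SYD libraries, with 1 point per library, a symbol for each replicate number, and a black line at the group mean. For Fap the groups stood in steps with no overlap, from 3.46 to 11.6 in control through 15.1 to 30.7 in model to 31.9 to 47.2 in SYD, while for Prg4, Pdpn, Thy1, and Has2 the 3 groups overlapped.

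Fap (ENSRNOG00000005679, listed at chr3:47138813-47225545) encodes fibroblast activation protein, a serine protease on the surface of fibroblasts in remodeling tissue. Positions here are those of the authors' table, whose rat build is not given in the sources used here. Fap measured 11.2, 3.46, and 11.6 FPKM in control 1, 2, and 3, 15.1, 30.7, and 17.9 in model, and 36.9, 31.9, and 47.2 with SYD. Every model library was above every control library, and every SYD library above every model library, patterns found for 8.65% and 7.89% of all tested genes. The means were 8.78 ± 4.61, 21.2 ± 8.27, and 38.7 ± 7.77 FPKM (SD, n = 3 each). Against control, Fap rose in SYD by a log2 fold change of 2.15 ± 0.44 (SE, 95% interval 1.07 to 3.23, limma adjusted p = 0.0281), and it was called without any 1 of the 6 libraries, at 1.66 to 2.41. The adjusted p, however, stayed under 0.05 in only 1 of these 6 fits, the one without control 2, and was 0.0515 to 0.0783 in the other 5 (limma). In model against control the log2 fold change was 1.27 ± 0.50 (SE, limma adjusted p = 0.244). This call depended on single libraries, since it was lost without control 2 (0.78) and without any 1 of the model libraries (0.98 to 1.47). In SYD against model it was 0.88 ± 0.34 (SE, limma adjusted p = 0.723), under the fold of the rule. Leaving out the 3 libraries with over 60% mitochondrial reads brought this last difference to 0.16, with model 2 the only model library left.

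Postn (ENSRNOG00000012660, chr2:138527696-138559099) encodes periostin, a secreted matricellular protein that takes part in collagen assembly. It had the widest range of the 10 genes in FPKM. Control 1, 2, and 3 held 14.5, 1.72, and 4.001 FPKM, the model libraries 3.34, 46.1, and 16.8, and the SYD libraries 55.5, 120.03, and 20.01. All SYD libraries were above the highest control library, whereas model 1 lay below it. Postn rose in SYD against control by a log2 fold change of 3.14 ± 0.86 (SE, 95% interval 1.02 to 5.26, limma adjusted p = 0.0584), from a mean of 6.73 ± 6.80 to 65.2 ± 50.7 FPKM. It was called without any 1 of the 6 libraries, at 2.53 to 3.83. The model group, at 22.1 ± 21.9 FPKM, differed from control by 1.37 ± 1.02 (SE, limma adjusted p = 0.519), with an interval from -1.10 to 3.84, and ranged from 0.57 without model 2 to 2.28 without model 1, not called in either.

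Pdgfrb and Pdgfra encode the receptor tyrosine kinases for platelet-derived growth factor. Pdgfrb (ENSRNOG00000018461, chr18:54499964-54538843) measured 11.6, 6.98, and 12.6 FPKM in control and 38.8, 34.5, and 23.3 in SYD. The model libraries were far apart, at 1.62 (32 reads), 33.0, and 8.32 FPKM. SYD stood above control throughout, and the model group overlapped both. Pdgfrb rose in SYD by a log2 fold change of 1.55 ± 0.28 (SE, 95% interval 0.85 to 2.25, limma adjusted p = 0.0216), which was called without any 1 of the 6 libraries at 1.31 to 1.76. The adjusted p stayed under 0.05 in only 1 of these 6 fits, the one without SYD 3, and was 0.0562 to 0.0749 in the other 5 (limma). The call was lost with all 9 libraries in one fit (limma adjusted p = 0.353). The difference of model from control was -0.24 ± 0.90 (SE, limma adjusted p = 0.910). It turned to 0.68 without model 1 and was 1.61 without both model libraries over 60% mitochondrial reads (limma adjusted p = 0.0571), with the remaining model library assumed to vary like the control libraries.

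Pdgfra (ENSRNOG00000002244, chr14:33005839-33054335) measured 6.03, 2.75, and 5.43 FPKM in control, 3.06, 12.1, and 8.73 in model, and 16.3, 13.1, and 6.95 in SYD. The lowest SYD library exceeded the highest control library by a narrow margin, and the model libraries lay on both sides of it. The log2 fold change in SYD was 1.17 ± 0.38 (SE, limma adjusted p = 0.0879). The call was lost without control 2 (0.89), SYD 1 (0.93), or SYD 2 (1.09, with a p over the threshold). For model it was 0.54 ± 0.53 (SE, limma adjusted p = 0.624), and it was called without model 1, at 1.03 (limma adjusted p = 0.156). Within each library, the ratio of Pdgfra to Pdgfrb in reads per base was 0.518, 0.394, and 0.432 in control, 1.86, 0.366, and 1.05 in model, and 0.421, 0.378, and 0.298 in SYD. The 2 receptors thus kept a similar ratio in 7 of the 9 libraries and a higher one in the shallow model 1 and model 3. The difference of the mean log2 ratio was 1.01 for model against control (two-sided exact permutation p = 0.4) and -0.30 for SYD against control (exact p = 0.2).

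**Figure D2:**
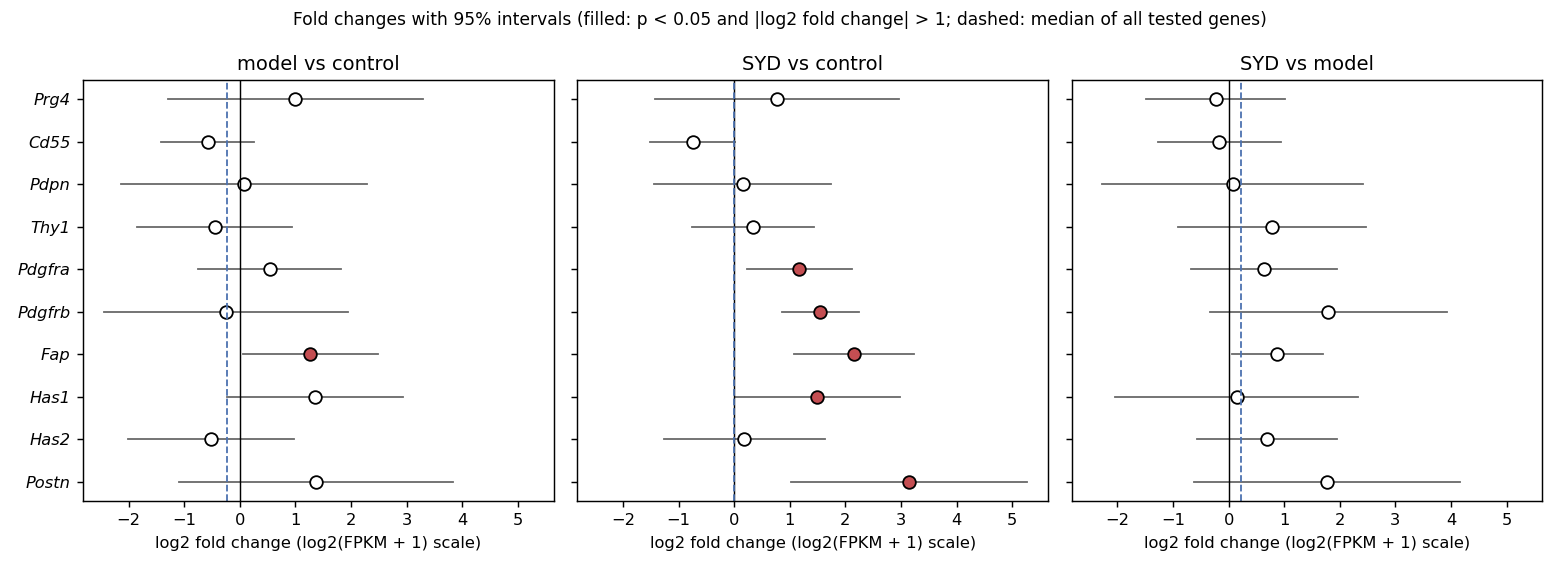
Log2 fold change of each of the 10 genes (horizontal axis, log2(FPKM + 1) scale) in the 3 comparisons, with 95% intervals from limma, filled points for called genes, and a dashed line at the median of all tested genes. Filled points are Fap for model against control and Pdgfra, Pdgfrb, Fap, Has1, and Postn for SYD against control, with none for SYD against model.

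The ligands and signaling genes around these receptors were described as a list of 14 genes, all tested. In SYD against control 4 were called higher and 0 lower, and the list's median log2 fold change was 0.49 against 0.00 for all genes. Pdgfa, which encodes a ligand of the alpha receptor, rose by 1.63 ± 0.34 (SE, limma adjusted p = 0.0305), from 8.16, 3.16, and 6.92 FPKM to 16.4, 18.1, and 25.6. Pdgfd, a ligand of the beta receptor, rose by 1.43 ± 0.35 (SE, limma adjusted p = 0.0443). Plcg1, a phospholipase recruited to the activated receptors, rose by 1.31 ± 0.22 (SE, limma adjusted p = 0.0178). Plat, the protease tPA that can activate PDGF-CC, was called at 1.91 ± 0.68 (SE, limma adjusted p = 0.107). In model against control 1 of the 14 was called, the adaptor gene Nck1, at 1.09 ± 0.23 (SE, limma adjusted p = 0.0708), and in SYD against model 0 were.

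Hyaluronan is spun out at the cell membrane by synthases. Has1 (ENSRNOG00000010994, chr1:58693411-58705397) was close to its floor in control, with 0.143, 0.117, and 0.0726 FPKM from 9, 9, and 6 reads. The model libraries held 4.85, 2.85, and 0 FPKM from 37, 158, and 0 reads, where a count of 0 in model 3 allows up to 0.215 FPKM. The SYD libraries held 0.180, 3.26, and 5.05 FPKM from 10, 194, and 122 reads. So 2 of 3 libraries in each of the model and SYD groups were above 2 FPKM, and the remaining library was near the control level. The log2 fold change in SYD was 1.49 ± 0.60 (SE, limma adjusted p = 0.144), and it was called in only 1 of the 6 fits that left out a library, the one without SYD 1 (2.19). It was also lost with no filter on low values (1.49) and with voom on the recovered reads (3.32). With a control mean of 0.111 FPKM, Has1 passed the filter only through the model and SYD libraries where it is high. For model it was 1.35 ± 0.65 (SE, limma adjusted p = 0.330), and it passed the rule without model 3 (2.10, limma adjusted p = 0.070).

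Has2 (ENSRNOG00000004854, chr7:88113326-88128933), the synthase of most mesenchymal tissues, measured 3.60, 0.119, and 1.75 FPKM in control, 0, 1.33, and 1.07 in model, and 0.780, 3.17, and 1.75 in SYD. With 0 reads, model 1 allows up to 0.225 FPKM. The 3 groups overlapped, and the differences from control were -0.52 ± 0.62 for model and 0.18 ± 0.59 for SYD (SE, limma adjusted p = 0.683 and 0.856). Their 95% intervals, -2.01 to 0.98 and -1.27 to 1.62, leave room for changes of more than 1 on the log2 scale. Without control 2 the differences were -1.07 and -0.38.

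Of 16 other genes that make, bind, or degrade hyaluronan, 12 were tested. In SYD against control 3 were called higher and 1 lower. Tnfaip6, which encodes TSG-6, a protein that crosslinks hyaluronan, rose by 1.61 ± 0.35 (SE, limma adjusted p = 0.0334), and Itih5, of the inter-alpha-trypsin inhibitor family, was called at 1.68 ± 0.60 (SE, limma adjusted p = 0.111). The hyaluronan receptor gene of lymphatic vessels, Lyve1, was called at 1.34 ± 0.48 (SE, limma adjusted p = 0.108). Hmmr, a hyaluronan receptor that is also a gene of dividing cells, fell by 1.67 on the log2 scale with a SE of 0.35 (limma adjusted p = 0.0299). In model against control 2 of the 12 were called, both lower, namely Hmmr and the cartilage link protein gene Hapln1, and the list's median was -0.62 against -0.23 for all genes. Called lower in model were 1553 of all 13898 genes. Ugdh, which makes the sugar precursor, and the receptor gene Cd44 were not called in either comparison (log2 fold changes of -0.19 and -0.26 in model, 0.23 and 0.53 in SYD). In SYD against model 2 were called, both higher, namely Lyve1 at 1.83 ± 0.71 (SE, limma adjusted p = 0.723) and the scavenger receptor gene Stab1.

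Prg4 (ENSRNOG00000002385, chr13:62487257-62504119) encodes lubricin, the boundary lubricant of joint surfaces, and is made by lining fibroblasts and by superficial chondrocytes. Control 1 and 3 held 31.9 and 33.0 FPKM, while control 2 held 2.92. The model libraries measured 15.9, 58.8, and 33.5 FPKM and the SYD libraries 21.9, 40.8, and 21.7. The model and SYD values lay on both sides of the 2 higher control values. The log2 fold changes were 1.00 ± 0.95 in model and 0.77 ± 0.89 in SYD (SE, limma adjusted p = 0.611 and 0.574), and both rested on control 2, since without it they were -0.032 and -0.26. Set against the cartilage proteoglycan gene Acan within each library, the ratio of Prg4 to Acan in reads per base was 0.104, 0.281, and 0.231 in control, 0.458, 5.50, and 51.6 in model, and 0.281, 0.945, and 6.94 in SYD. All model libraries were above all control libraries, by a mean log2 difference of 4.74 (two-sided exact permutation p = 0.1, the smallest that 3 against 3 can give). SYD was above control by 2.70 (exact p = 0.1), although SYD 1 and control 2 were equal to 3 digits. The ratio includes any change of Acan, and over the 9 ratio tests the smallest adjusted p was 0.3.

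Cd55 (ENSRNOG00000003927, chr13:41857395-41885831) encodes decay-accelerating factor, which shields cells from complement and marks lining fibroblasts. It measured 6.18, 8.89, and 8.75 FPKM in control, 3.39, 7.21, and 4.77 in model, and 2.84, 6.92, and 3.80 in SYD. Cd55 was the only gene of the 10 whose fitted log2 fold change against control was negative in both model and SYD. The SYD and model groups each overlapped control through a single library. The log2 fold changes were -0.58 ± 0.35 in model (SE, limma adjusted p = 0.422) and -0.75 ± 0.31 in SYD (SE, limma adjusted p = 0.151), and neither was called. Without SYD 2 the SYD value was called lower (-1.04, limma adjusted p = 0.0557).

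Pdpn (ENSRNOG00000014961, chr5:155601691-155635656) encodes podoplanin, a membrane glycoprotein of lining fibroblasts, lymphatic endothelium, and osteocytes. Its levels were 6.38, 1.60, and 4.80 FPKM in control, 5.70, 13.1, and 0.400 in model, and 3.22, 11.3, and 1.94 in SYD. The low model 3 value came from 5 reads. The spread within the model and SYD groups was nearly as wide as their means, and the log2 fold changes of 0.081 ± 0.91 and 0.15 ± 0.65 (SE, limma adjusted p = 0.973 and 0.891) had intervals from -2.13 to 2.30 and from -1.44 to 1.74. Without control 2 they were -0.36 and -0.29.

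Thy1 (ENSRNOG00000006604, chr8:44389513-44394659) encodes the surface protein CD90, which marks sublining and perivascular fibroblasts. The control libraries were close together at 25.4, 21.9, and 22.2 FPKM. The other libraries were not, with 10.01, 43.8, and 10.1 in model and 33.9, 51.6, and 14.4 in SYD. In both model and SYD some libraries lay above and some below all 3 controls. The log2 fold changes were -0.45 ± 0.57 in model and 0.33 ± 0.44 in SYD (SE, limma adjusted p = 0.703 and 0.625). The model value turned on which libraries were used. Without model 2 it was -1.12 (limma adjusted p = 0.016), and without the libraries over 60% mitochondrial reads, which leaves model 2 as the only model library and assumes that it varies like the controls, it was 0.89 (limma adjusted p = 0.035).

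Complement regulators and binding partners of Cd55, Pdpn, and Thy1 were listed as 15 genes, of which 13 were in the table and 11 were tested. In model and in SYD alike, 0 were called higher than control and 2 lower. Over all 13898 genes 1553 were called lower in model and 1282 in SYD. These were the integrin genes Itgb3, whose product binds Thy1 protein, and Itgam. Itgb3 fell by 2.13 on the log2 scale in model (SE 0.31, limma adjusted p = 0.0382) and by 1.18 in SYD (SE 0.26, limma adjusted p = 0.035). Itgam fell by 1.78 in model (SE 0.29, limma adjusted p = 0.0418) and by 1.74 in SYD (SE 0.20, limma adjusted p = 0.00917). Both are also known as genes of blood cells, Itgb3 of platelets and osteoclasts and Itgam of myeloid cells. In SYD against model 1 of the 11 was called, Sdc4, which encodes the proteoglycan syndecan-4, higher at 2.32 ± 0.60 (SE, limma adjusted p = 0.723).

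The 10 genes differed in how high they stood. In control, Thy1 (23.2 ± 1.94 FPKM, SD) and Prg4 (22.6 ± 17.1) were the highest, followed by Pdgfrb (10.4 ± 2.99), Fap (8.78 ± 4.61), Cd55 (7.94 ± 1.53), Postn (6.73 ± 6.80), Pdgfra (4.73 ± 1.75), Pdpn (4.26 ± 2.43), Has2 (1.82 ± 1.74), and Has1 (0.111 ± 0.036). Each mean differed from the next by less than the larger of their SDs, except Pdpn from Has2, where the difference was just over it. In SYD the order began with Postn (65.2 ± 50.7 FPKM), Fap (38.7 ± 7.77), Thy1 (33.3 ± 18.6), Pdgfrb (32.2 ± 8.01), and Prg4 (28.1 ± 11.0), none of which differed from its neighbour beyond the larger SD. Pdgfra (12.1 ± 4.77) stood below Prg4 by more than either SD, Pdpn (5.48 ± 5.06) below Pdgfra likewise, and Cd55 (4.52 ± 2.13), Has1 (2.83 ± 2.47), and Has2 (1.90 ± 1.20) came last. In model the order was Prg4 (36.1 ± 21.6 FPKM), Postn (22.1 ± 21.9), Thy1 (21.3 ± 19.5), Fap (21.2 ± 8.27), Pdgfrb (14.3 ± 16.5), Pdgfra (7.96 ± 4.56), Pdpn (6.39 ± 6.36), Cd55 (5.12 ± 1.94), Has1 (2.57 ± 2.44), and Has2 (0.799 ± 0.705), where only Cd55 and Has1 differed as neighbours by more than the larger SD. Postn thus moved from the sixth of the 10 in control to the first in SYD, and Cd55 from the fifth to the eighth.

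How the total is scaled matters here, because mitochondrial reads fill very different parts of the libraries. The deposited FPKM used an effective library size that put the median gene at -0.23 in model and 0.00 in SYD on log2(FPKM + 1). With 0.1 or 0.01 added in place of 1, or with voom, the model median was -0.54, -0.83, and -0.52. The SYD median was then -0.038, -0.073, and -0.023. On TPM, which shares a fixed total with the mitochondrial genes, the median gene moved to -2.60 and -1.31. On that scale Fap, Pdgfrb, Postn, and Has1 kept a positive fold change in SYD (0.74, 0.10, 1.87, and 1.36) but were not called, Pdgfra stood at -0.16, and Cd55 was called lower at -2.25. In model against control the same scale put Fap at -1.64, Postn at -1.21, Prg4 at -1.96, and Pdgfra at -2.05, and only Cd55 (-3.25) and Thy1 (-3.40) were called, both lower, where 10407 of all 13898 genes were called lower (5901 in SYD). Relative to the median gene the SYD values of the called genes other than Has1 changed little. Fap stood 2.15 above it on the deposited scale and 2.06 on TPM, Pdgfrb 1.55 and 1.42, Postn 3.14 and 3.18, and Pdgfra 1.17 and 1.16. The rises given for these genes are changes relative to the other genes of the same library.

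**Figure D3:**
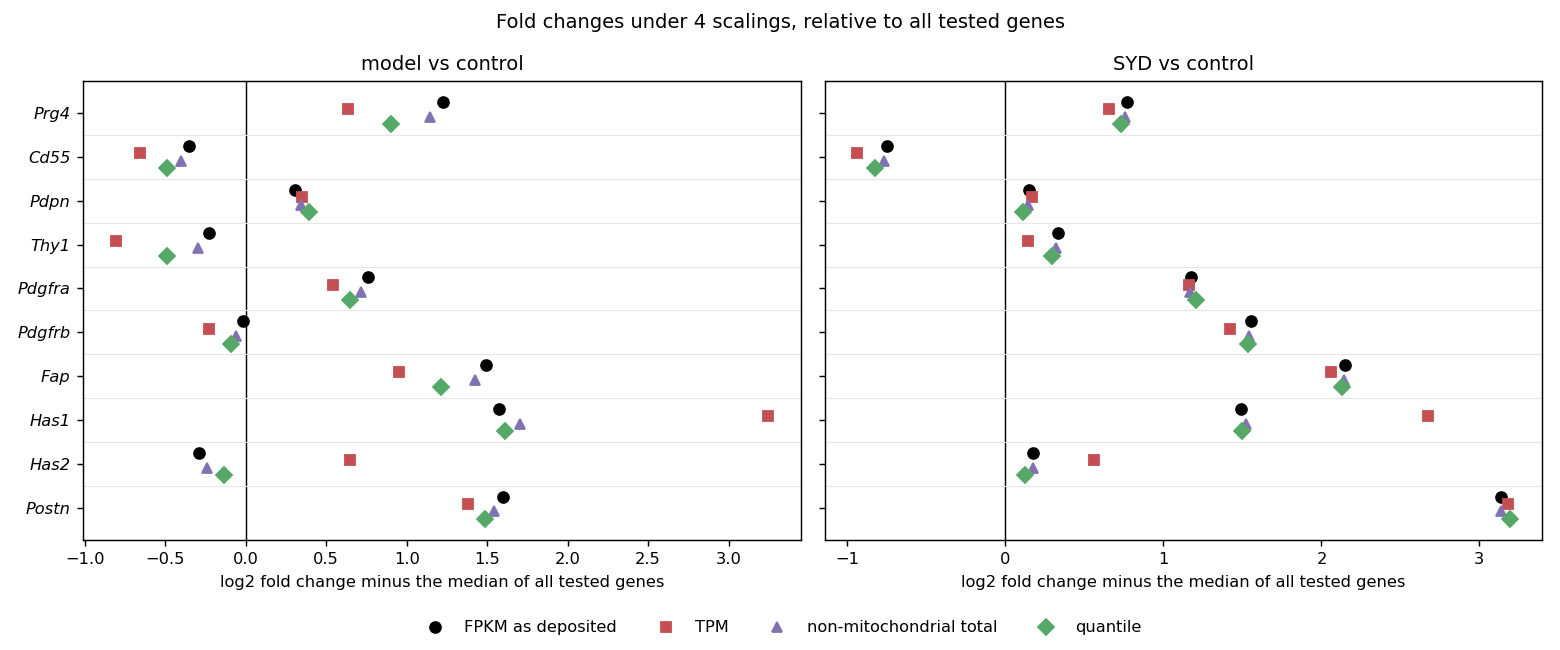
Log2 fold change of each of the 10 genes minus the median of all tested genes (horizontal axis) for model and SYD against control, under 4 scalings shown by symbols. In SYD the 4 symbols of Fap, Pdgfrb, Pdgfra, and Postn lie close together, as from 2.06 to 2.15 for Fap, while for Has1 the TPM symbol (2.67) stands apart from that of the deposited FPKM (1.49).

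Other genes of the same tissue were described as lists. Of 13 further lining fibroblast genes 12 were tested, and in SYD against control 4 were called higher and 2 lower. Over all 13898 genes 1007 were called higher and 1282 lower. Htra1, a secreted serine protease gene, was called at 1.86 ± 0.51 (SE, limma adjusted p = 0.0569), from 42.0, 13.2, and 40.7 FPKM in control to 119, 139, and 71.4 in SYD. Cdh11, the cadherin that holds lining fibroblasts together, rose by 1.46 ± 0.32 (SE, limma adjusted p = 0.0334), and the growth factor gene Hbegf by 1.86 ± 0.26 (SE, limma adjusted p = 0.0127). Called lower were the adhesion gene Vcam1, at -1.20 ± 0.36 (SE, limma adjusted p = 0.0703), and the nuclease gene Dnase1l3, at -1.22 ± 0.32 (SE, limma adjusted p = 0.0521). The lining genes thus did not move one way. In model against control Hbegf alone was called, higher, at 1.09 ± 0.40 (SE, limma adjusted p = 0.211).

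Of 18 sublining and other fibroblast genes, all tested, 4 were called higher and 3 lower in model, and 7 higher and 3 lower in SYD. Over all 13898 genes, 493 were called higher and 1553 lower in model, and 1007 higher and 1282 lower in SYD. The proteoglycan gene Lum rose in SYD by 2.37 ± 0.45 (SE, limma adjusted p = 0.0243) and the microfibril gene Mfap5 by 2.03 ± 0.44 (SE, limma adjusted p = 0.0326). Dpt, a matrix protein gene of fibroblasts, was called in both groups, at 3.85 ± 0.87 in model and 2.81 ± 1.04 in SYD (SE, limma adjusted p = 0.0797 and 0.118), as was Igf1, at 2.59 ± 0.62 in model and 1.41 ± 0.55 in SYD (SE, limma adjusted p = 0.0903 and 0.133). The 3 genes called lower in both groups were C3, Dpp4, and Ly6c, which blood and immune cells also express. Dpp4 fell from 5.08, 6.44, and 7.39 FPKM in control to 0.135 in model 2 and to 0.713 and 0.399 in SYD 2 and SYD 3, and was listed at 0 in model 1, model 3, and SYD 1, where a count of 0 allows up to 3 reads. With means of 0.0451 FPKM in model and 0.371 in SYD, Dpp4 passed the filter of 0.5 FPKM only through control. Fap, its close relative among the serine proteases, was called higher in both groups. The Fap call in model was lost without control 2 or any 1 of the model libraries.

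Among 14 relatives and matrix partners of periostin, all tested, 3 were called higher and 0 lower in SYD. Bmp1, the procollagen protease that periostin binds, rose by 1.61 ± 0.32 (SE, limma adjusted p = 0.0268), Tnc (tenascin C) was called at 1.23 ± 0.39 (SE, limma adjusted p = 0.0796), and Col3a1 at 3.47 ± 1.35 (SE, limma adjusted p = 0.133). Col1a1, the main bone and tendon collagen gene, was at 0.83 ± 0.75 in SYD and -0.92 ± 0.99 in model (SE, limma adjusted p = 0.471 and 0.651). In model the close relative of periostin Tgfbi was called higher at 1.49 ± 0.55 (SE, limma adjusted p = 0.214) and Thbs1 lower at -2.66 ± 0.68 (SE, limma adjusted p = 0.105). Within each library the ratio of Postn to Col1a1 was higher in all SYD than in all control libraries, by a mean log2 difference of 2.63 (two-sided exact permutation p = 0.1). The model difference was 2.50 with model 1 inside the control range (exact p = 0.2), and SYD differed from model by 0.14 (exact p = 1.0).

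**Figure D4:**
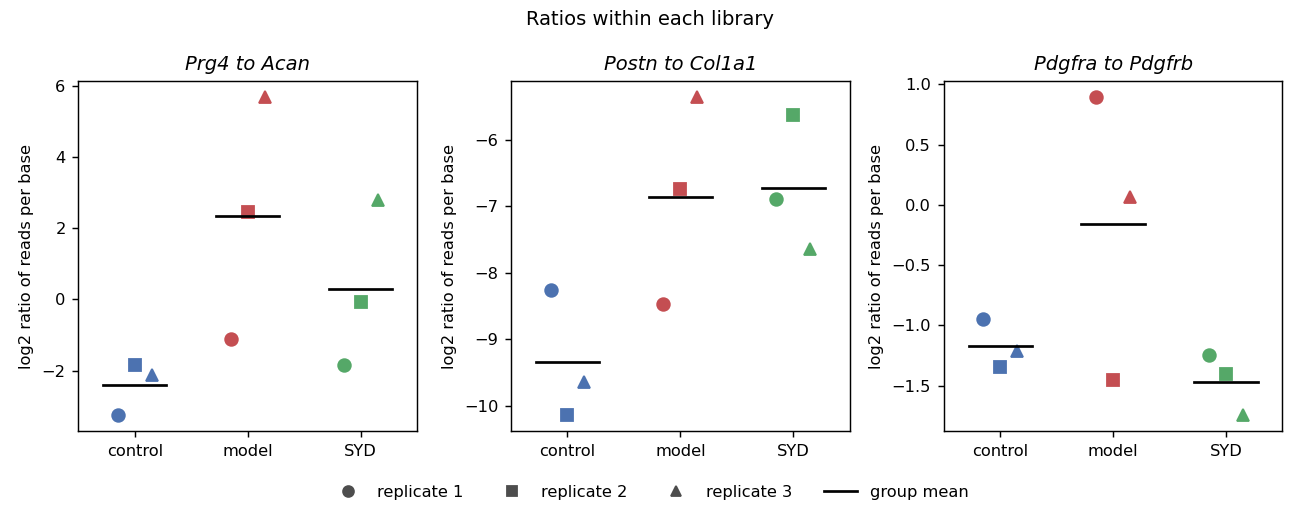
Log2 ratios of reads per base within each library (vertical axis) for Prg4 to Acan, Postn to Col1a1, and Pdgfra to Pdgfrb, with 1 point per library and a black line at the group mean. For Prg4 to Acan the control points lie below every model point and at or below every SYD point, and for Pdgfra to Pdgfrb model 1 and model 3 stand above all other libraries.

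Markers of some other cell types were also called higher in SYD against control. Of 11 perivascular genes, 8 were called higher and 0 lower in SYD against control, among them the smooth muscle genes Tagln at 4.15 ± 0.54 and Acta2 at 4.22 ± 0.59 (SE, limma adjusted p = 0.0107 and 0.0126). Their summed level was 26.7 to 82.4 FPKM in control, 28.6 to 470 in model, and 172 to 625 in SYD. Of 9 endothelial genes 5 were called higher in SYD, such as Pecam1 at 1.83 ± 0.21 (SE, limma adjusted p = 0.0087), and their sum was 51.8 to 70.9 FPKM in control, 25.6 to 301 in model, and 131 to 178 in SYD. Perivascular cells also express Pdgfrb. Within the groups the highest Pdgfrb came with the highest perivascular and endothelial sums in model (model 2 for each), but not in control (control 3 against control 1 for both sums) or in SYD (SYD 1 against SYD 2 for both sums). Of 9 osteoblast genes, which include Col1a1, 3 were called higher in SYD, among them Spp1 at 2.53 ± 0.43 (SE, limma adjusted p = 0.0186), and osteoblasts and periosteum also express Postn. The part of these cells in the rises of Pdgfrb, Pdgfra, Postn, and Fap was not tested.

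The labelled tissue was checked with 13 chondrocyte markers. Their sum was 451 to 11100 FPKM in control, 138 to 815 in model, and 114 to 2408 in SYD, and none of them was at 0 in all libraries of a group. Cytl1 alone made up 1136 of the 2408 FPKM in SYD 1, and was at 1.27 to 17.5 in the other libraries. In model 7 were called lower and 0 higher, where 1553 of all 13898 genes were called lower. The median log2 fold change of these markers was -3.35. In SYD 0 were called, with a median of -1.74. Of 8 tested macrophage genes 0 were called against control in either group, and 1, Csf1r, was called higher in SYD against model. Of 4 tested T cell genes 1 was called lower in model, and 1 higher and 1 lower in SYD. Skeletal muscle genes (7 tested) had 1 called higher in model and 0 in SYD, with sums of 19.4 to 307 FPKM in control, 36.2 to 640 in model, and 26.1 to 878 in SYD, and adipocyte genes (7 tested) had 0 and 2 called higher. Whether the share of chondrocytes, muscle, or fat in the tissue taken has a part in the values of the 10 genes was not tested.

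**Figure D5:**
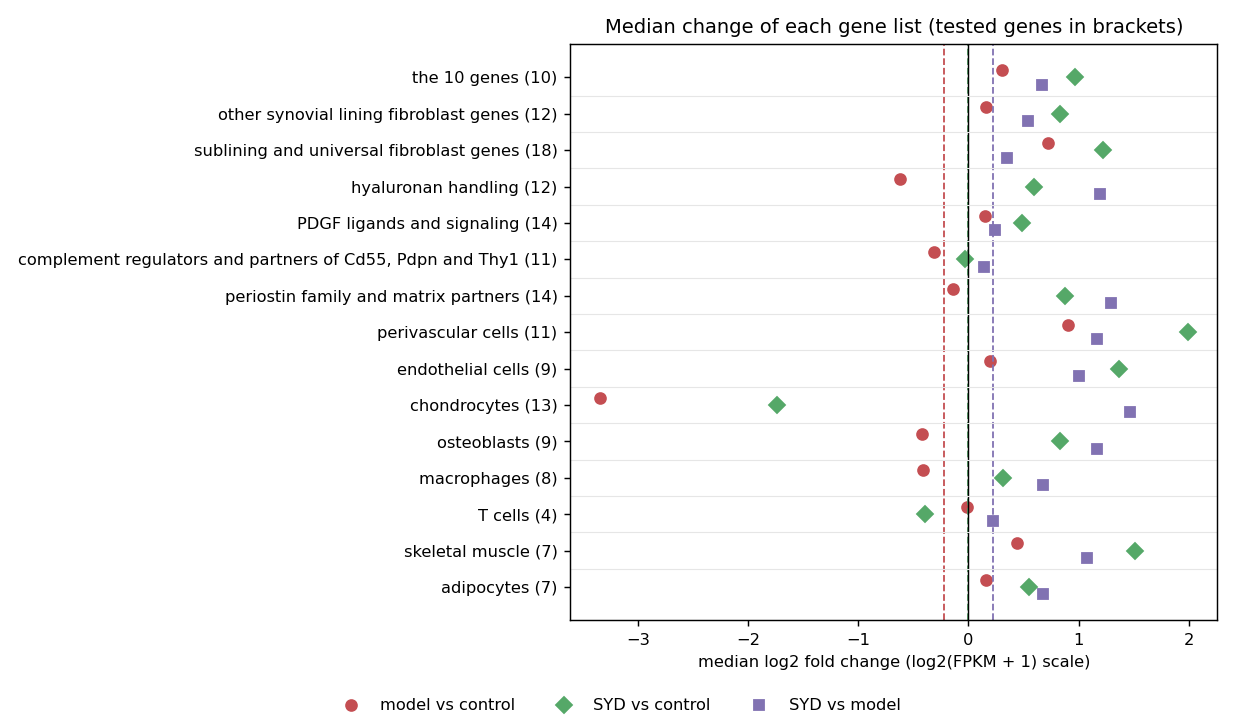
Median log2 fold change (horizontal axis, log2(FPKM + 1) scale) of the 10 genes and of 14 other gene lists, with tested genes in brackets, a symbol for each comparison, and dashed lines at the medians of all tested genes. For SYD against control the 10 genes, Has1 included, stand at 0.97, between the perivascular genes at 1.99 and the chondrocyte genes at -1.74.

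The genes did not vary together as one group. Over the 9 libraries, Pdgfra went with Postn (Pearson r = 0.939 of log2(FPKM + 1)) and with Pdgfrb (r = 0.856), while Cd55 ran against Fap (r = -0.565) and Has1 had r = 0.030 with Pdgfra. Among 5703 other tested genes with a mean of at least 5 FPKM, those most like Pdgfrb were Slc35b1 (r = 0.991) and Olfml2b (r = 0.985), and those most like Postn were Tnn, which encodes tenascin N (r = 0.989), and LOC108348067 (r = 0.982), also near Pdgfra (r = 0.979). Fap was most like Bag3 (r = 0.970), Tgfb2 (r = 0.959), and the collagen crosslinking gene Loxl1 (r = 0.950). Pdgfra was nearest to Dnm1 (r = 0.987) and Thy1 to Sypl1 (r = 0.975). Prg4 was nearest to Hif1a (r = 0.919), Cd55 to Mapre1 (r = 0.928), Pdpn to Pja2 (r = 0.920), Has1 to Rab18 (r = 0.945), and Has2 to Ccdc80 (r = 0.893). The number of such genes over r = 0.9 ranged from 0 for Has2 to 182 for Pdgfrb. These are descriptions over 9 libraries that share groups, depth, and mitochondrial share.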

How the data were processed

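RNA was measured in 9 libraries of rat knee cartilage, 3 each of control, model, and SYD, grouped by the sample labels. The authors deposited FPKM per gene and library, with gene length and position. The processing notes of the submitters name HISAT2 2.0.5 and the human build hg38, although the gene identifiers are those of rat, so the rat build of the positions is not given in the sources used here. Library preparation used a TruSeq kit, per the labels. The number of per-sample value columns left out was 0.

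The 10 genes and the 14 other lists were chosen with earlier results of these data known. FPKM times length gave whole multiples of 1 read for 100% of values (tolerance 0.1), from which reads and depth were recovered. A count of 0 was taken to allow 3 reads, which covers counting error only. The main test was limma 3.58.1 (R 4.3.3), lmFit and eBayes with a trend, two-sided, on log2(FPKM + 1) of the 6 libraries of each pair, over genes with a mean of at least 0.5 FPKM. It was tested on simulated data. Within-library ratios used recovered reads plus 1 per base and exact permutation tests. Named genes of a list were its 3 highest and up to 3 called in each direction by fold, and, for each of the 10 genes, the 3 with the highest correlation.

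Alternatives were pseudocounts of 0.1 and 0.01, no filter or a mean of at least 1, TPM, scaling to non-mitochondrial reads, quantile normalization, voom on recovered reads, 1 fit of all 9 libraries, the replicate number as a block, and leaving out each library. Leaving out libraries with over 60% mitochondrial reads was chosen after seeing the data. Protein sequences were not used here.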

Additional observations from a re-analysis of the deposited data

How the results depend on the processing

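The 5 genes called in SYD against control, Has1 included, became 3 with all 9 libraries in one fit (Fap, Pdgfra, and Postn) and 1 on TPM (Cd55, lower), and the fits that left out a library called 3 to 4, not always among these 5 (without SYD 2 they were Fap, Pdgfrb, Postn, and, lower, Cd55). The 1 gene called in model against control became 0 with no filter, a pseudocount of 0.01, the replicate block, or scaling to non-mitochondrial reads, and 2 with quantile normalization (Fap and Has1), voom (Fap and Postn), TPM (Cd55 and Thy1, lower), or without libraries over 60% mitochondrial reads (Has1 and Pdgfrb). Leaving out single libraries gave 0 to 1. The 0 called in SYD against model became 1 with all 9 libraries in one fit (Pdgfrb) or non-mitochondrial scaling (Fap), and leaving out single libraries gave 0 to 4. Same-numbered samples did not deviate together (r from -0.267 to 0.194), so the numbers were not taken as pairs. With the replicate block 4 genes were called in SYD against control and 0 in SYD against model, and over all genes the adjusted calls went to 0 in each comparison, from 360, 2407, and 0.

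Some fold changes changed sign. In model against control these were Pdpn (-0.23 and -0.17 with pseudocounts of 0.01 and 0.1, -0.022 with non-mitochondrial scaling), Pdgfrb (0.70 with voom, 1.61 without libraries over 60% mitochondrial) and Thy1 (0.89 without them), and, on TPM, Fap (-1.64), Pdgfra (-2.05), Pdpn (-2.25), Postn (-1.21), and Prg4 (-1.96). In SYD against control they were, all on TPM, Has2 (-0.75), Pdgfra (-0.16), Pdpn (-1.14), Prg4 (-0.66), and Thy1 (-1.17). In SYD against model they were Has1 (-0.11) and Pdpn (-0.28) with quantile normalization, Cd55 (1.00) and Prg4 (1.30) on TPM, Pdpn (-0.49) with voom, and Has1 (-0.78), Pdpn (-0.97), and Thy1 (-0.065) without libraries over 60% mitochondrial. Apart from the TPM values, which follow from the shift of all genes, the cause was not tested.

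Leaving out single libraries turned Pdpn (-0.65 to 1.01), Prg4 (-0.032 to 1.53), and Pdgfrb (-1.17 to 0.68) in model against control, and Has2 (-0.38 to 0.64), Pdpn (-0.45 to 0.58), Thy1 (-0.059 to 0.83), and Prg4 (-0.26 to 1.30) in SYD against control. In SYD against model it turned Cd55 (-0.46 to 0.066), Has1 (-0.61 to 0.85), Pdpn (-0.86 to 0.80), Prg4 (-0.70 to 0.21), and the log2 ratio of Postn to Col1a1 (-0.67 to 0.89). Of 160 values for SYD against control, 130 kept direction and side of the threshold, as did 137 of 170 for model against control and 148 of 170 for SYD against model.

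Over all genes, called genes in model against control went from 2046 (493 higher) to 10445 on TPM (38 higher), 3275 with voom, 3302 without libraries over 60% mitochondrial, and 1309 to 3344 without single libraries, and quantile normalization gave 2038 (944 higher). In SYD against control they went from 2289 (1007 higher) to 6029 on TPM (128 higher). In SYD against model they went from 577 (503 higher) to 1220 with all 9 libraries in one fit, 1078 with voom, and 315 to 2495 without single libraries, and quantile normalization gave 540 (329 higher). Depth limits model 1 and model 3 most.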
